A study of Mus musculus with 96 samples.

Results

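The comparison described here is the effect of cardiomyocyte Bmal1 loss on ventricular gene expression at mid subjective night. It uses the 16 libraries of 96 whose titles carry ct18 or ct42, read as circadian time in hours, which fall at the same point of the 24 h cycle 1 day apart. All 96 samples are mouse ventricle of the genotype iCSBmal1 KO, an inducible cardiomyocyte-specific knockout of Bmal1, so the controls carry the same engineered genotype and differ by not having received the inducer. At mid subjective night there were 8 tamoxifen and 8 vehicle libraries, 4 of each carrying F and 4 carrying M in the title, with 2 libraries per treatment, sex and time. The study asked how Bmal1 shapes sex differences in the daily transcriptome of the heart. The sources used here give no mouse age, tamoxifen dose or time since induction. Tamoxifen exposure and the knockout go together in this design and cannot be told apart, and recombination restricted to cardiomyocytes leaves the gene intact in the other cells of the ventricle. The labels do not say that libraries are separate animals, so p-values reflect how much these libraries vary, which may be technical. Title numbers run in separate ranges in vehicle F, vehicle M and tamoxifen libraries, so a batch that runs with the numbers cannot be told apart from treatment. Levels are counts divided by library size in units of 1e+06 counts (CPM), with TMM scaling between libraries, and changes are log2 differences, tamoxifen minus vehicle, with the standard error (SE).

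The circadian clock of a cardiomyocyte is a transcriptional feedback loop. BMAL1 (gene symbol Arntl) pairs with CLOCK or NPAS2 and activates genes through E-boxes, among them the repressors Per, Cry, Nr1d1, Nr1d2, Ciart and Bhlhe41 and the output activators Dbp, Tef and Hlf. PER and CRY proteins inhibit the activating pair, while the REV-ERB receptors (Nr1d1, Nr1d2) and the ROR receptors (among them Rora and Rorb) compete at ROR elements, through which they repress or activate Arntl, Npas2, Cry1 and Nfil3. DBP, TEF and HLF activate and NFIL3 represses through D-boxes. In mice kept without light cues, subjective night is the active phase, when Arntl transcript climbs from its trough towards its peak. In the vehicle hearts here mean Nr1d1 was lowest at mid subjective night, while Nr1d2 fell on from 155.4 CPM there to 92.11 CPM at ct 22.

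The promoters of 4 genes that changed at mid subjective night are shown because they carry the sequence elements of this loop: Ciart, which fell, Cry1 and Nfil3, which rose, and Slc41a3, which has the highest change of the genes named here. Each runs 5′ to 3′ on the strand of the gene, from 250 bases before to 50 bases after the RefSeq start (GRCm38.p6). Capitals mark an E-box (CACGTG) in Ciart, Cry1 and Slc41a3 and a ROR element (TAGGTCA, present as its reverse complement) in Nfil3.
Ciart, chr3:95882179-95882478, minus strand: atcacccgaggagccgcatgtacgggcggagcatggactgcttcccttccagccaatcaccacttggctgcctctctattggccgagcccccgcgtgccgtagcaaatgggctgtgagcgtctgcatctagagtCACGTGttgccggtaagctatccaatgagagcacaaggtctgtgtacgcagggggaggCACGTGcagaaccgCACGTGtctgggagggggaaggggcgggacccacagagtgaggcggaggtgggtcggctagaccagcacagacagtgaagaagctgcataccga
Cry1, chr10:85185005-85185304, minus strand: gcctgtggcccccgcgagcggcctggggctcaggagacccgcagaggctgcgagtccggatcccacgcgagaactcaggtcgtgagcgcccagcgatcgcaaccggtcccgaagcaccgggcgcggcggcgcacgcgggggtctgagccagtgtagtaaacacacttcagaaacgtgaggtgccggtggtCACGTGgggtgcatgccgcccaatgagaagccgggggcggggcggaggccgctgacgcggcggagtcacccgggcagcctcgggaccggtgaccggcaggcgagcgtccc
Nfil3, chr13:52980990-52981289, minus strand: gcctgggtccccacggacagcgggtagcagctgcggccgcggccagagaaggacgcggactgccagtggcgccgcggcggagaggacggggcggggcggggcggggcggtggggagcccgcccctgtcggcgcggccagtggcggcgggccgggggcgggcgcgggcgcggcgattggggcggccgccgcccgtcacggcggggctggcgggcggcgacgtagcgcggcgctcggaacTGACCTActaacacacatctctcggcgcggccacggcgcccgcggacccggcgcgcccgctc
Slc41a3, chr6:90618996-90619295, plus strand: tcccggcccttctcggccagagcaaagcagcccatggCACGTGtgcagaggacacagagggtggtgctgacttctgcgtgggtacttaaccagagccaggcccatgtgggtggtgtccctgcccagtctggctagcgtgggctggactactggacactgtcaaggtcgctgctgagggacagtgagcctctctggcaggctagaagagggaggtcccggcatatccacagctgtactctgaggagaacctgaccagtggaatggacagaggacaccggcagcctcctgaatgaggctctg
Counted from the RefSeq start shown, the E-boxes begin at −116, −58 and −44 in Ciart, at −60 in Cry1 and at −213 in Slc41a3, and the ROR element of Nfil3 begins at −12. The start shown for Slc41a3 lies inside the span that GENCODE gives the gene, so its window is an internal start and not the upstream end of the gene. Searching both strands, an E-box occurred in 7.15% of the 32851 promoters in the table, a D-box (TTANGTAA) in 2.32% and a ROR element in 2.61%. Of 28 tested members of the clock lists 24 had a promoter entry, and 8 of these held an E-box, 3 a D-box and 2 a ROR element. Among clock members with an entry, 1 of 6 that rose held an E-box, 3 of 7 that fell and 4 of 11 that did not pass the test. Of the 10 leading rises outside or inside these lists 7 genes had an entry, 2 of them with an E-box. Of the 10 leading falls 8 genes had an entry and 0 an E-box. A gene with several promoters counts as holding a motif if any of them does, whereas the shares of all promoters are per promoter. A match is a description of the letters in this window.

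Totals at mid subjective night ran from 12597734 to 18108388 counts, 16148288 ± 1404894 in tamoxifen and 14481301 ± 1494942 in vehicle libraries (SD, n = 8 each). Some libraries stood apart. The atrial light chain transcript Myl7 lay at 28.5 to 50.8 CPM before TMM scaling in the 4 vehicle libraries of ct 18 and below 1 CPM in the other 12. The library Veh_M_ct42_21 had 0.152% of its counts in TEC entries, annotated regions that await experimental support, where the highest value outside vehicle M was 0.112%, and it differed from its partner more than other pairs did (chi-square per gene of 50.4, against 4.70 to 14.6). The library Veh_M_ct18_2 held 50.2 CPM of Nr1d1, 83.3 CPM of Dbp and 4.39 CPM of Arntl, where the other 7 vehicle libraries held 10.39 to 15.98, 15.6 to 37.7 and 10.5 to 19.7 CPM. Cardiomyocyte markers summed to 40070 to 56710 CPM in every library. They do not separate ventricle from atrium, and the atrial Myl7 and Myl4 go against a pure ventricle label in the 4 vehicle libraries of ct 18.

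Arntl, the targeted gene (ENSMUSG00000055116.8), spans bases 113207465 to 113314126 of chromosome 7. At this time its whole-gene level did not separate the treatments: the tamoxifen libraries held 11.29, 13.65 and 16.95 CPM (lowest, median, highest) and the vehicle libraries 4.39, 13.6 and 19.7 CPM. The ranges overlapped completely, and the change was 0.10 ± 0.18 (adjusted p = 0.739, edgeR quasi-likelihood test with Benjamini-Hochberg adjustment over 15629 genes, as for all changes below). Vehicle hearts here were midway up the daily climb, at 13.2 ± 4.62 CPM between 2.62 ± 0.995 at ct 14 and 33.3 ± 9.95 at ct 22 (SD, n = 8 each; times are given modulo 24 h). Tamoxifen hearts moved less, from 8.97 ± 2.61 to 13.9 ± 1.95 and 22.5 ± 3.80 CPM at the same times. A count over the whole gene includes exons outside a deleted part and transcripts of cells other than cardiomyocytes, so at this time it is no check of the labels.

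Of the 28 tested clock members 14 changed at mid subjective night, 7 higher and 7 lower, which is 50% where 12.7% of all tested genes did. The count was 16 (10 higher, 6 lower) without the 4 vehicle libraries high in Myl7, where 37.57% of all genes were called, and 15 (8 higher, 7 lower) without Veh_M_ct18_2 and Veh_M_ct42_21, where 11.47% were. All 8 tamoxifen libraries lay above or below all 8 vehicle libraries for 6 members, 4 above and 2 below, where 2.95% of all genes separated, 2.19% above and 0.755% below. Among the activators 4 of 7 rose and 1 fell, among the repressors 3 of 11 rose and 3 fell, and among the outputs 0 of 10 rose and 3 fell.

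In the activating arm Npas2, which can stand in for CLOCK, rose most. Npas2 lay at 7.53, 9.04 and 11.9 CPM in tamoxifen libraries and at 1.22, 3.15 and 3.59 CPM in vehicle libraries (lowest, median, highest). The groups did not overlap, a 3.09-fold difference (1.63 ± 0.15, adjusted p = 2.14e-06). Clock itself lay at 81.84, 95.93 and 124.6 CPM against 56.8, 62.5 and 90.8 CPM, where the highest vehicle library reached into the tamoxifen range (0.54 ± 0.10, adjusted p = 0.0018). Rorb and Rora, which encode ROR receptors, moved in opposite directions. Rorb, scarce in these hearts, rose from 0.497, 1.26 and 2.05 to 1.84, 3.44 and 4.15 CPM (1.30 ± 0.23, adjusted p = 0.000992), with 1 tamoxifen library inside the vehicle range. Rora fell from 52.8, 63.4 and 85.2 to 39.8, 47.1 and 57.2 CPM (−0.45 ± 0.09, adjusted p = 0.00263). Arntl2, a paralog of Arntl, had a change of −0.17 ± 0.12 that missed the threshold.

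Repressors moved in both directions. Ciart, which encodes a protein that binds BMAL1 and blocks activation, lay at 0.885, 1.32 and 1.61 CPM in tamoxifen and at 4.01, 4.74 and 7.22 CPM in vehicle libraries. The groups were far apart, and the level fell to 0.257 of the vehicle level (−1.961 ± 0.168, adjusted p = 7.05e-07). Nr1d2, which encodes REV-ERBβ, lay at 45.6, 71.1 and 93.7 against 114, 147 and 240 CPM, again with no overlap (−1.13 ± 0.16, adjusted p = 0.000128). Per3 fell by 0.53 ± 0.13 on the log2 scale (adjusted p = 0.0152), with overlapping ranges. Its mean log2 differences at ct 18 and ct 42 were −0.32 and −0.065 in F and −1.08 and −0.58 in M libraries. The difference between F and M was not called, and neither was Per3 at ct 42 alone (−0.35, adjusted p = 0.162). In the opposite direction, Cry1 lay at 40.8, 50.9 and 56.1 CPM in tamoxifen and at 22.4, 32.6 and 40.6 CPM in vehicle libraries. The ranges came close without crossing (0.65 ± 0.08, adjusted p = 4.10e-05). Nfil3, the D-box repressor, lay at 42.4, 53.5 and 66.1 against 13.1, 28.5 and 41.2 CPM, also without overlap (0.97 ± 0.14, adjusted p = 0.000135). Cry2 rose by 0.38 ± 0.08 (adjusted p = 0.00295), from a median of 44.4 to 58.1 CPM.

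Other repressors did not pass the test. Nr1d1, which encodes REV-ERBα, lay at 12.6, 16.2 and 24.6 CPM in tamoxifen libraries and at 10.4, 13.7 and 50.2 CPM in vehicle libraries, where the highest value is Veh_M_ct18_2 alone. Its change was −0.02 ± 0.27 over all 16 libraries, and 0.51 (adjusted p = 0.0163) without the 4 vehicle libraries high in Myl7, among which Veh_M_ct18_2 is counted. Bhlhe41, an E-box repressor, had a change of 0.24 ± 0.10 (adjusted p = 0.107), and was called without Veh_M_ct18_2 (0.30). Changes of Per1 (−0.14 ± 0.21), Per2 (0.06 ± 0.13) and Bhlhe40 (0.05 ± 0.11) were smaller than their errors.

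Clock outputs that changed over all 16 libraries were lower. Nampt, the rate-limiting enzyme of NAD salvage, lay at 165, 202 and 268 CPM in tamoxifen and at 230.5, 435.6 and 587.6 CPM in vehicle libraries. Only the lowest vehicle library, Veh_M_ct42_21, fell within the tamoxifen range (−1.08 ± 0.16, adjusted p = 0.000182). Coq10b, which encodes a coenzyme Q binding protein, fell from a median of 46.3 to 29.9 CPM (−0.55 ± 0.10, adjusted p = 0.000896). Tef fell by 0.35 ± 0.11 on the log2 scale (adjusted p = 0.0393), a call lost when any of 9 libraries was left out and without the libraries high in Myl7 (−0.11). Dbp had a change of −0.59 ± 0.25 that missed the threshold (adjusted p = 0.122), with the highest of 16 values in Veh_M_ct18_2. Hlf (0.03 ± 0.13), Klf15 (−0.22 ± 0.14), Usp2 (−0.26 ± 0.09), Wee1 (−0.32 ± 0.12), Tspan4 (−0.13 ± 0.12) and Por (−0.04 ± 0.08) did not pass either. Hlf was called higher without the libraries high in Myl7 (0.298), and Usp2 and Wee1 were called lower with library size alone (−0.317 and −0.373) and without Veh_M_ct42_21 (−0.278 and −0.355).

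**Figure D1:**
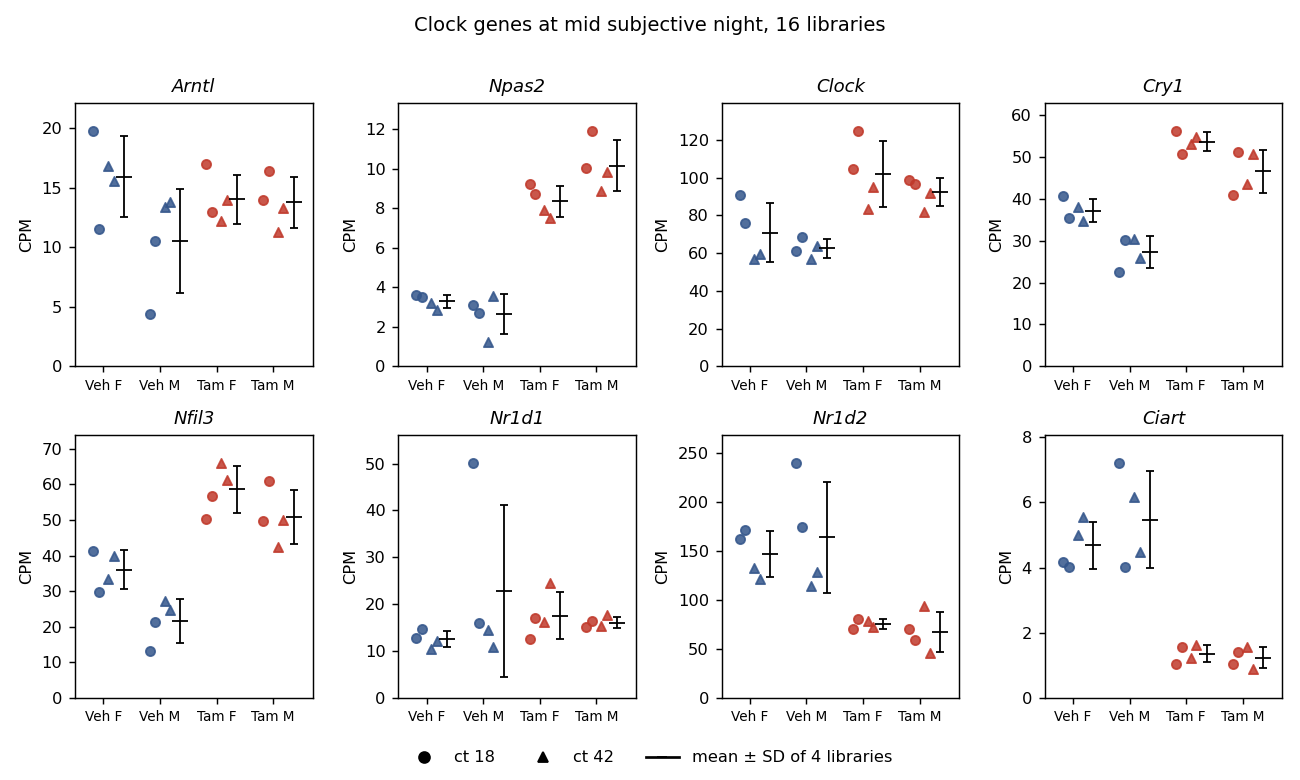
CPM (vertical axes, from 0) of 8 clock genes in the 16 libraries of mid subjective night by treatment and sex. Circles are ct 18, triangles ct 42, and bars the mean ± SD of 4 libraries. Tamoxifen and vehicle points do not overlap for Npas2, Cry1, Nfil3, Nr1d2 and Ciart, Arntl and Clock points overlap, and 1 vehicle M library stands at 50.2 CPM of Nr1d1.

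Outside the clock, the leading rises included Slc41a3, Cdkn1a and Hcn2. Leading genes are the 10 highest and 10 lowest changes among called genes of at least 5 CPM with 1 direction in both sexes and on both days, so their size at this time is what chose them. Slc41a3, a magnesium transporter gene of the solute carrier family (chromosome 6, bases 90604725 to 90646412), lay at 172, 209 and 277 CPM in tamoxifen libraries and at 33.6, 42.7 and 58.6 CPM in vehicle libraries. The gap between the groups was wide, a 5.02-fold difference (2.33 ± 0.13, adjusted p = 1.69e-09). Cdkn1a, which encodes the cell cycle inhibitor p21, lay at 110, 131 and 183 against 15.1, 31.9 and 54.1 CPM (2.13 ± 0.21, adjusted p = 2.37e-06). Hcn2, a pacemaker channel gene, lay at 57.9, 65.9 and 102 against 12.7, 24.4 and 31.2 CPM (1.56 ± 0.16, adjusted p = 3.41e-06). In each of these the lowest tamoxifen library was above the highest vehicle library. Lingo3, a leucine-rich repeat membrane protein gene (1.65 ± 0.18), the vesicular glutamate transporter gene Slc17a7 (1.64 ± 0.25), Colq, the collagen tail of acetylcholinesterase (1.40 ± 0.14), the nuclear receptor corepressor gene Hr (1.37 ± 0.15) and the kelch protein gene Klhdc8a (1.35 ± 0.15) also rose with no overlap. Ccn5, a matricellular protein gene, rose by 1.47 ± 0.31, but its tamoxifen range of 3.98 to 28.3 CPM crossed the vehicle range of 1.71 to 12.9 CPM.

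The leading falls included lipid enzymes. Ces1d, a lipid-hydrolysing carboxylesterase, lay at 18.7, 37.2 and 98.1 CPM in tamoxifen and at 215, 269 and 338 CPM in vehicle libraries (−2.60 ± 0.29, adjusted p = 1.09e-05). Ptgds, a prostaglandin D2 synthase gene, had medians of 95.7 and 335 CPM, and its highest tamoxifen library, at 166 CPM, lay below its lowest vehicle library, at 219.6 CPM (−1.94 ± 0.19, adjusted p = 3.21e-06). Neither overlapped between treatments. Strit1, encoding the SERCA-activating peptide DWORF (−1.55 ± 0.23), the anoctamin gene Ano4 (−1.83 ± 0.22), Gm19522 (−1.81 ± 0.17) and Gdap10 (−1.59 ± 0.22) fell without overlap, and the adhesion gene Cntn5 (−1.90 ± 0.31) and the chloride channel gene Clcn1 (−1.49 ± 0.25) fell with overlap. Vehicle libraries held 11.3 to 15.7 CPM of Cntn5 at ct 18, where they are high in Myl7, and 3.04 to 6.66 CPM at ct 42. The change of Cntn5 was −2.46 at ct 18 and −1.01 at ct 42. Gdap10 (chromosome 12, bases 32821872 to 32826904) lies inside Nampt (32819545 to 32853349), on the same strand. Its counts and those of Nampt may therefore not be separate, which was not tested.

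Myl4, the atrial essential light chain, had the lowest value of this set (−3.75 ± 0.73, adjusted p = 0.00259), and it was carried by the vehicle libraries of ct 18. There Myl4 lay at 37.0 to 61.0 CPM, against 1.71 to 3.56 CPM in vehicle libraries of ct 42 and 1.52 to 2.30 CPM in the 8 tamoxifen libraries. Without the libraries high in Myl7 the change was −0.24 and not called (adjusted p = 0.359). Of 6 tested atrial markers 2 were lower, Myl7 and Myl4, and summed levels of the list were 857 to 1129 CPM in tamoxifen and 552 to 1067 CPM in vehicle libraries.

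**Figure D2:**
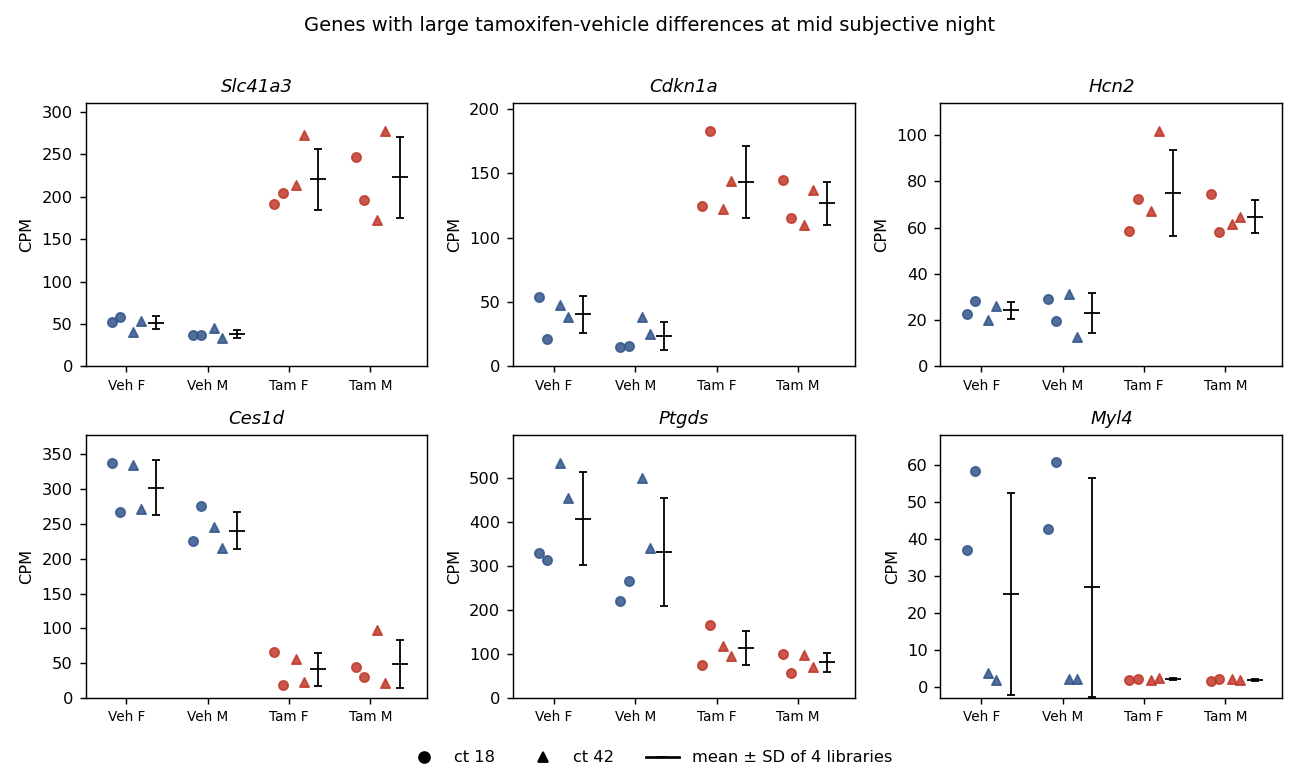
CPM (vertical axes) of 6 genes in the same 16 libraries, with symbols and bars as in the plot of clock genes. Slc41a3, Cdkn1a and Hcn2 are higher and Ces1d and Ptgds lower in every tamoxifen library, while high Myl4 is limited to the 4 vehicle libraries of ct 18.

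In all 1984 of 15629 tested genes changed (12.7%), 1066 higher (6.82%) and 918 lower (5.87%), with a median size of 0.45 among those called. With scaling by library size alone 855 of 2097 called genes were higher, 40.77%. Changes of at least 1.5-fold were fewer, 234 higher and 426 lower. The count was 5872 without the 4 vehicle libraries high in Myl7, 1793 without Veh_M_ct18_2 and Veh_M_ct42_21, and 1325 to 2198 when each library was left out in turn, and 971 genes were called the same way under all 28 alternatives that use both sexes.

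Gene groups of the heart are described by their called members. Of all tested genes 12.7% were called with all libraries, 6.82% higher and 5.87% lower. In bulk tissue, fewer cells of a type and less RNA per cell cannot be told apart. Among 35 cardiac ion channels 7 rose and 6 fell (median 0.11, all genes −0.02). The largest called rises were in Hcn2 and Kcne1 (1.26 ± 0.19), whose product joins the slow delayed rectifier channel, and the silent potassium channel subunit gene Kcnv2 was among the falls (−0.90 ± 0.16). Without the libraries high in Myl7 the channels counted 19 higher and 7 lower (median 0.42), where 37.57% of all genes were called. That fit holds vehicle libraries of ct 42 alone. Of 18 calcium handling genes 3 rose, among them Srl (0.58 ± 0.18) and the calcium store protein gene Casq2 (0.54 ± 0.15), and Strit1 fell. Without the libraries high in Myl7 9 rose and 2 fell. Sarcomere genes had 2 higher, Mybpc3 (0.46 ± 0.11) and Myom1 (0.42 ± 0.12), and 2 lower, the titin cap gene Tcap (−0.86 ± 0.14) and Myh7b (−0.45 ± 0.15), of 22. The call of Myh7b, at −0.08 on ct 18 and −0.77 on ct 42, was lost in 11 of 16 fits that left out 1 library, that of Srl in 8 and that of Myom1 in 4. Of 11 cardiac stress markers 1 rose, Rcan1, the calcineurin regulator (1.03 ± 0.13).

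Metabolic groups are likewise described by their called members, where 12.7% of all tested genes were called. Lipid storage and lipolysis had 2 higher, Pnpla3 (1.14 ± 0.19) and Cidea (0.42 ± 0.10), and 5 lower of 17, led by Ces1d and the triglyceride-forming enzyme gene Dgat2 (−1.02 ± 0.17), with a list median of −0.07. Glucose and insulin genes had 5 higher, among them Irs1 (0.59 ± 0.11) and Hk1 (0.45 ± 0.14), and 1 lower, Akt1 (−0.39 ± 0.12), of 32. Of 16 fits that left out 1 library, 12 lost the call of Akt1 and 10 that of Hk1. Fatty acid oxidation had 1 higher, Ppard (0.30 ± 0.09), and 1 lower, the uncoupling protein gene Ucp3 (−0.44 ± 0.13), of 32, calls lost in 5 and 4 such fits. None of 28 nuclear genes of oxidative phosphorylation was called with all libraries (median −0.02), 0 at an unadjusted p under 0.05 and 0 by DESeq2. Without the libraries high in Myl7 2 of them were higher and 9 lower, a share of 39.29% beside 37.57% of all genes. The metallothionein genes Mt1 (−0.80 ± 0.13) and Mt2 (−1.12 ± 0.24) fell and Ddit4 rose (0.88 ± 0.22) among 12 glucocorticoid targets, where 2 rose and 2 fell.

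Cell cycle genes were lower where called, 5 of 14 (Mki67, Top2a, Ccna2, Mcm6 and Aurkb), with a list median of −0.61 and Top2a falling from a median of 4.04 to 2.71 CPM (−0.96 ± 0.24). Beside this and the following lists, 6.82% of all tested genes were called higher and 5.87% lower with all libraries. Of 15 heat shock genes 3 rose, Hsph1 (0.70 ± 0.12), Hsp90aa1 (0.42 ± 0.12) and Bag3 (0.34 ± 0.08). Of 22 genes of the integrated and ER stress list 4 rose, led by the mitochondrial folate enzyme gene Mthfd2 (0.78 ± 0.16), and 3 fell, led by Ddit3 (−0.56 ± 0.12). Among 13 p53 targets 2 rose, Cdkn1a and Ei24 (0.27 ± 0.07), and Eda2r fell (−0.39 ± 0.12), a call lost in 11 of 16 fits that left out 1 library. Extracellular matrix genes had 3 higher, including Ccn5 and Col4a2 (0.52 ± 0.08), and 1 lower, Thbs1 (−0.59 ± 0.17), of 28, a call lost in 8 such fits. Without the libraries high in Myl7, where 37.57% of all genes were called, the cell cycle list had 9 lower, heat shock 5 higher and 1 lower, p53 targets 5 higher and 3 lower, glucose and insulin 12 higher and 1 lower, and fatty acid oxidation 12 higher and 2 lower.

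Markers of other cells gave few calls, where 6.82% of all tested genes were called higher and 5.87% lower with all libraries. Macrophage markers had 2 lower of 12, C1qb (−0.30 ± 0.09) and Cx3cr1 (−0.47 ± 0.15), each lost in 9 of 16 fits that left out 1 library, and 6 lower when scaled by library size alone. That scaling called 13.42% of all tested genes and moved calls downward as a whole, with 1242 lower and 855 higher. Their summed level was 250 to 388 CPM in tamoxifen and 326 to 476 CPM in vehicle libraries. Endothelial markers had 1 lower of 10, Cldn5 (−0.54 ± 0.18), and 7 lower without the libraries high in Myl7, where 37.57% of all genes were called. The call of Cldn5 was lost in 12 of 16 fits that left out 1 library. Endothelial markers summed to 1235 to 1492 against 1238 to 2282 CPM. Schwann cell markers had 2 lower of 5, among them Cdh19 (−0.48 ± 0.12). Fibroblast markers had 1 higher of 9, Mfap4 (1.03 ± 0.28), a call lost without the libraries high in Myl7, and mural markers 1 lower of 9, Acta2 (−0.65 ± 0.14). Mfap4 was highest in Tam_F_ct18_575 (39.3 CPM) and Tam_F_ct42_542 (46.4 CPM). The other tamoxifen libraries held 9.63 to 18.8 CPM of it and the vehicle libraries 6.01 to 12.5 CPM. No lymphocyte, neutrophil or erythroid marker was called by edgeR or DESeq2, with 0 of 5, 2 of 3 and 1 of 6 at an unadjusted p under 0.05. The part of cell composition in the results above was not tested.

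Which changes belong to this circadian time was tested directly, as the effect at mid subjective night minus the mean effect at the other 5 times (ct 22, 2, 6, 10 and 14), in 1 fit over all 96 libraries. No gene passed (0 of 15629, 0%), with a smallest adjusted p of 0.366 and 840 genes at an unadjusted p under 0.05. DESeq2 called 2, Dmpk, the myotonic dystrophy kinase (0.25), and the Y-linked Eif2s3y (−5.82). The contrast averages F and M, so the value of a Y-linked gene rests in part on F libraries and is not read as a change at this time. The median SE of this difference was 0.10 for the 10991 genes of at least 5 CPM, which sets the size of difference that could be seen. The changes at mid subjective night ran the same way elsewhere: of the 1984 genes called, 1974 (99.5%) had the same sign over the other 5 times, which were measured in 80 separate libraries, where 83.1% of all genes did. They were called there in the same direction for 1874 genes (94.46%; 60.9% of all genes were called there), with a median size of 0.32 against 0.45 at mid subjective night, where they had been selected. The sign was shared with every one of the 5 other times for 1720. At single times 74.8 to 79.11% of all genes shared the sign, and their share at all 5 was not computed.

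The leading genes followed this pattern. Of the 10 highest and 10 lowest changes 19 had the same sign at all 5 other times, the exception being Myl4 (0.88 at ct 10). The matching share of all genes was not computed. Slc41a3 was 2.33 at mid subjective night and 2.08 ± 0.11 over the other times, Cdkn1a 2.13 and 1.88 ± 0.12, and Ptgds −1.94 and −2.01 ± 0.13. Ccn5 had the smallest p for a difference among them, with 1.47 against 0.54 ± 0.10 (difference 1.0 ± 0.25 in the 96-library fit, unadjusted p = 0.000164), and missed the adjusted threshold. Of 218 changes of at least 2-fold 217 kept their sign over the other times, where 83.1% of all genes did. The exception, Car3, a carbonic anhydrase, was named after its values were seen. It was −2.18 ± 0.50 at mid subjective night, ranged from −2.89 at ct 22 to 2.06 at ct 6, and was −3.40 at ct 18 and −0.43 at ct 42.

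**Figure D3:**
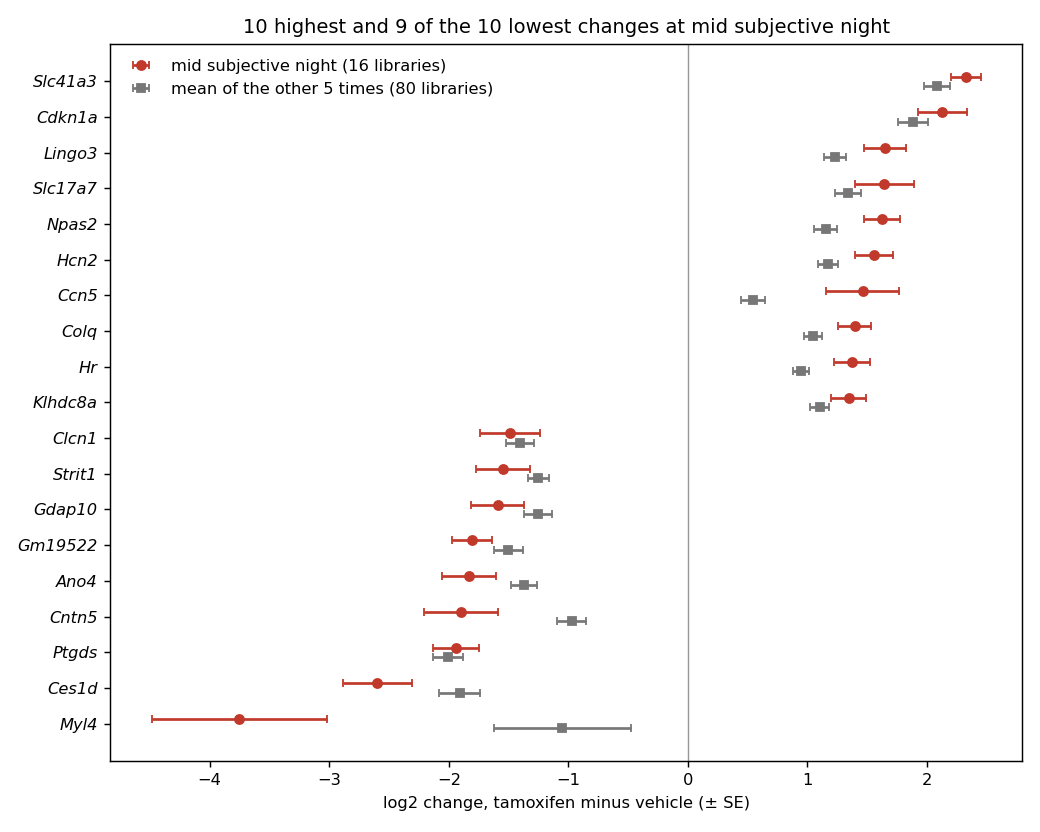
Log2 change (horizontal axis, tamoxifen minus vehicle, ± SE) of the 10 highest and 9 of the 10 lowest genes at mid subjective night (circles, 16 libraries) and averaged over the other 5 times (squares, 80 libraries). Every pair of symbols lies on the same side of 0, and 18 of 19 are larger at mid subjective night, at which they were chosen.

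**Figure D4:**
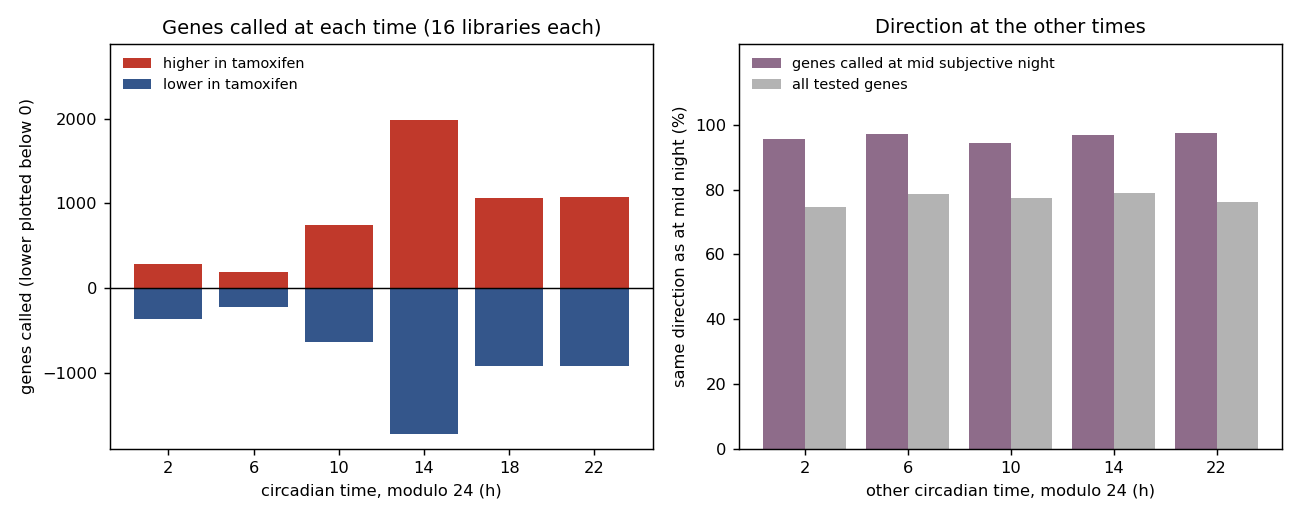
Left, genes called (vertical axis, lower ones drawn below 0) at each circadian time from 16 libraries each. Right, percent of genes with the same direction as at mid subjective night, for the 1984 called there and for all tested genes. Calls run from 425 at ct 6 to 3716 at ct 14, and 94.35 to 97.38% of the mid-night calls share their direction.

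Counts of calls by time showed mid subjective night among the fuller times. From 16 libraries each, 1984 genes were called at mid subjective night, 1997 (12.8%) at ct 22, 649 (4.15%) at ct 2, 425 (2.72%) at ct 6, 1384 (8.86%) at ct 10 and 3716 (23.8%) at ct 14. Clock members called were 14 of 28 at mid subjective night, 18 at ct 22, 13 at ct 2, 6 at ct 6, 16 at ct 10 and 17 at ct 14. These counts depend on the spread at each time as well as on the size of the effects. With 1 spread for all 96 libraries, 22.2% of genes were called at mid subjective night, 7.58% at ct 22, 14.7% at ct 2, 12.7% at ct 6, 28.1% at ct 10 and 36.5% at ct 14. The 14 clock members called at mid subjective night kept their sign at all 5 other times for 13, the exception being Tef (0.03 at ct 2). For all genes this share was not computed.

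Clock genes did differ in how the effect ran through the day, and mid subjective night was rarely its extreme. A test for any difference among the 6 times, added after the data were seen, called 103 genes (0.659%), among them 9 of 28 clock members, including Arntl, Npas2, Per2, Cry1, Nr1d1, Bhlhe41, Nfil3 and Usp2. Arntl was 0.10 ± 0.23 at mid subjective night in this fit, between 1.82 ± 0.29 at ct 14 and −0.52 ± 0.22 at ct 22. Set against single times, its effect at mid subjective night was lower than at ct 10 by 1.98 ± 0.37 (adjusted p = 0.00824) and than at ct 14 by 1.72 ± 0.37 (adjusted p = 0.0333). Per2 stood at a similar crossing, 0.05 ± 0.24, after −0.60 ± 0.24 at ct 14 and before 0.49 ± 0.26 at ct 22. Cry1, at 0.65 ± 0.11, was near its smallest rise, and its effect was smaller than at ct 6 (1.48 ± 0.12) by 0.83 ± 0.17 (adjusted p = 0.0217). Npas2, at 1.63 ± 0.23, was between 2.10 ± 0.25 at ct 14 and 0.81 ± 0.21 at ct 22. Rora, which was not among the 9, had its lowest value at mid subjective night (−0.45 ± 0.07, against −0.13 to −0.25 at the other times), a difference of −0.26 ± 0.07 (unadjusted p = 0.000895, adjusted p = 0.647).

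Nr1d1 was the clock gene whose effect at mid subjective night stood furthest from its mean over the other times. In vehicle hearts Nr1d1 ran from 17.7 ± 13.3 CPM at mid subjective night to 144 ± 29.5 CPM at ct 6, and in tamoxifen hearts from 16.8 ± 3.48 to 76.86 ± 15.95 CPM at the same times (SD, n = 8 each). Its effect was −0.01 ± 0.19 at mid subjective night and −1.58 ± 0.18 at ct 2, −0.89 ± 0.17 at ct 6, −0.54 ± 0.19 at ct 22, −0.12 ± 0.17 at ct 10 and −0.03 ± 0.17 at ct 14. The difference from the other 5 times was 0.62 ± 0.20 (95% interval 0.23 to 1.02, adjusted p = 0.647). Without Veh_M_ct18_2 it was 0.99 ± 0.18 and was the sole gene called (adjusted p = 0.00719). That fit leaves out the highest Nr1d1 value of mid subjective night, 50.15 CPM, so its call is not independent of the value tested. The difference was 0.11 ± 0.23 in the first 24 h and 1.25 ± 0.21 in the second, and 1.123 ± 0.223 in F and 0.106 ± 0.325 in M libraries, and Veh_M_ct18_2 belongs to the first 24 h and to M. Against ct 2 alone Nr1d1 was the 1 gene called (1.57 ± 0.26, adjusted p = 0.000608).

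**Figure D5:**
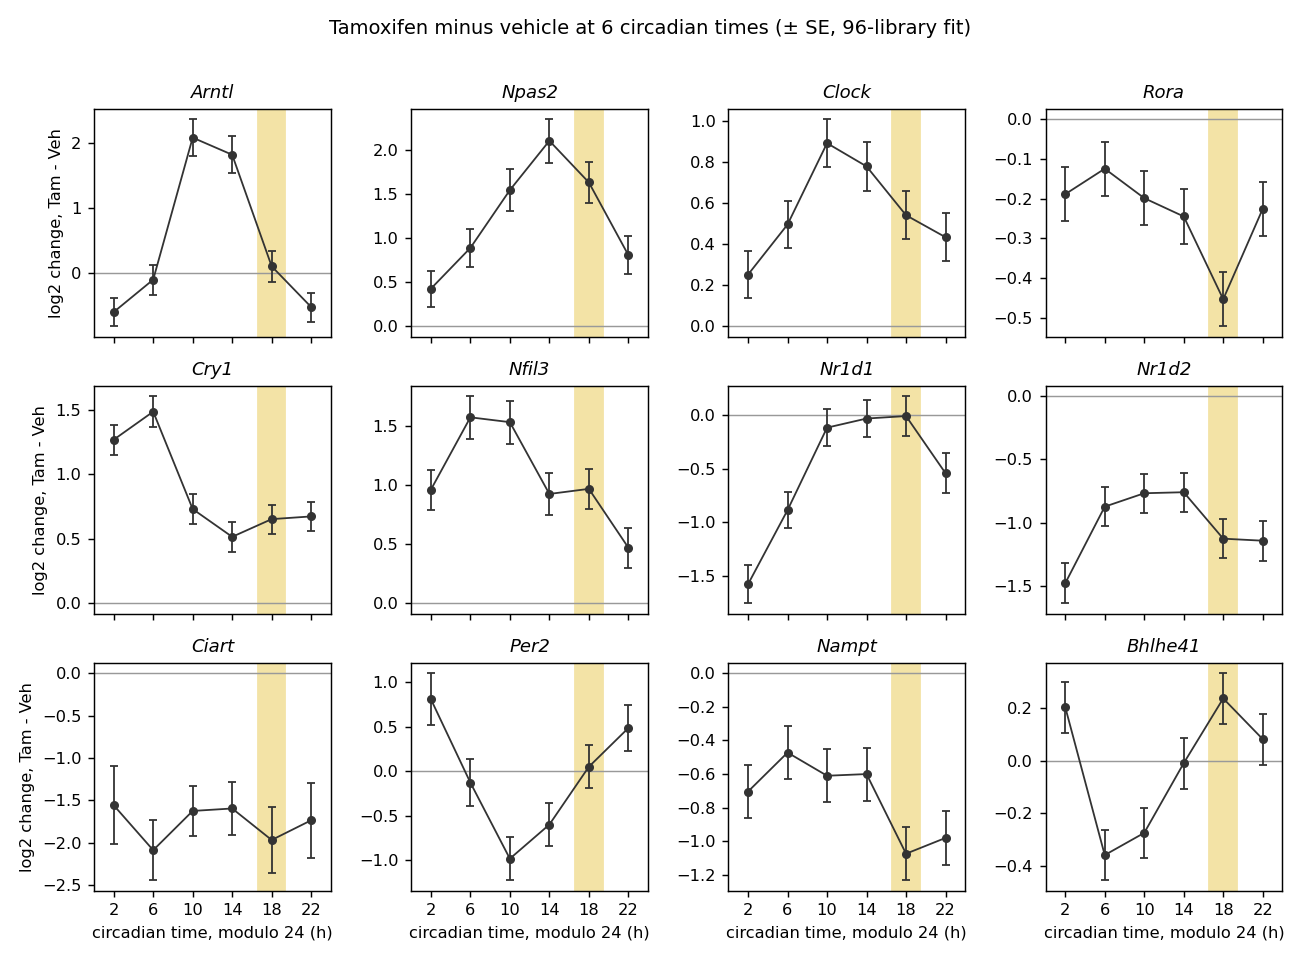
Log2 change (vertical axes, tamoxifen minus vehicle, ± SE from the 96-library fit) of 12 clock genes at 6 circadian times (horizontal axes, hours modulo 24), with mid subjective night shaded. Arntl and Per2 cross 0 there, Nr1d1 is at −0.01 after its low of −1.58 at ct 2, and Ciart, Nr1d2 and Nampt lie below 0 at all 6 times.

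Of the 103 genes that differed among times 51 had their largest effect at ct 14, 19 at ct 10 and 6 at mid subjective night. The last 6 were 2610035D17Rik (−0.91 ± 0.17), the T cell costimulator gene Cd28 (−0.65 ± 0.13), Gm5463 (−0.70 ± 0.19), Dmpk (0.41 ± 0.07), Rai1 (0.47 ± 0.10) and Rubcn, a regulator of autophagy (0.28 ± 0.08). Rai1, a chromatin-associated protein gene, had effects of −0.07 to 0.02 at ct 2, 6, 10 and 14 and of 0.26 at ct 22. Its difference from the other times was 0.45 (unadjusted p = 3.10e-05), and it was the 1 gene called when each of the 48 combinations of group and time had its own mean (0.46 ± 0.09, adjusted p = 0.027). 10 of the 1984 calls had the opposite mean sign over the other times, none with a called difference. Txnip, the thioredoxin-interacting protein gene, is one of them, at −0.82 ± 0.24 against 0.02 ± 0.11, and so are Angptl4, a lipoprotein lipase inhibitor (−0.99 ± 0.29 against 0.51 ± 0.22), and the Krüppel-like factor gene Klf11 (−0.33 ± 0.10 against 0.16 ± 0.06). Genes in this paragraph were named after their values were seen.

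The 2 days that make up mid subjective night gave different amounts of change. From 8 libraries each, 1300 genes were called at ct 18 (8.32%) and 3536 at ct 42 (22.6%). At ct 18 the count fell to 612 without Veh_F_ct18_403, 650 without Veh_M_ct18_2 and 711 without Veh_M_ct18_3. At ct 42 leaving out any 1 of the tamoxifen or vehicle F libraries gave 980 to 2299, lowest without Veh_F_ct42_433, and the count was 5538 without Veh_M_ct42_20. Both days called 525 genes in the same direction (40.38% of the ct 18 calls and 14.85% of the ct 42 calls) and 29 in opposite directions. The day difference itself, an interaction added after the data were seen, was called for 762 genes (4.88%). Of 28 clock members 1 was called, Wee1, a cell cycle kinase gene (−0.59 at ct 18 and 0 at ct 42), a share near that of all genes. Several others had large day differences that missed the threshold, among them Nr1d1 (−0.52 and 0.62), Dbp (−1.01 and −0.15), Nr1d2 (−1.42 and −0.78) and Arntl (0.43 and −0.22), with values at ct 18 and ct 42. The M libraries of ct 18 include Veh_M_ct18_2, which stood apart in Nr1d1, Dbp and Arntl. For these genes the mean log2 differences at ct 18 were 0.09, −0.43 and −0.03 in F libraries. In M libraries they were −0.84, −1.32 and 1.09.

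Interferon response genes, which cells switch on against viral nucleic acid, had opposite signs on the 2 days. None of 16 was called over both days together (median −0.09), 0 at an unadjusted p under 0.05 and 0 by DESeq2. The day difference was called for 9 (including Ifit1, Ifit3, Irf7, Stat2, Bst2, Ifi27, Ifi35 and Rsad2), where 4.88% of all genes were. All 16 had a positive change at ct 18 and all 16 a negative change at ct 42, with medians of 0.25 and −0.49. Of all tested genes 57.43% had the same sign on both days. On each day alone 1 of the 16 was called higher at ct 18 and 7 lower at ct 42. At those times 8.32% and 22.6% of all genes were called. The 16 genes were measured in the same libraries, so their signs are not independent. Irf7, the transcription factor that sustains interferon production, lay at 10.3 to 18.5 CPM in tamoxifen and 10.4 to 14.2 CPM in vehicle libraries at ct 18, and at 9.498 to 12.99 and 15.35 to 19.56 CPM at ct 42, where the groups did not overlap. Summed over the list, vehicle libraries held 286 to 337 CPM at ct 18 and 397.7 to 537.4 CPM at ct 42, and tamoxifen libraries 348 to 473 and 286 to 381 CPM. The day difference of Irf7 was −0.92 ± 0.20 (adjusted p = 0.0323).

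Channel genes differed between days too, 7 of 35, where 4.88% of all tested genes did: Cacna1g, Cacnb2, Hcn4, Kcnd2, Kcnj3, Kcnj5 and Kcnn2. Hcn4, the main pacemaker channel gene of the sinus node, lay at 11.6 to 19.0 CPM in the vehicle libraries of ct 18, which are those high in Myl7, at 5.40 to 8.69 CPM in vehicle libraries of ct 42, and at 5.47 to 14.1 CPM in tamoxifen libraries of both days. Kcnd2, a subunit of the transient outward current, lay at 35.8 to 47.3 CPM and at 13.97 to 25.74 CPM in vehicle libraries of ct 18 and ct 42, against 42.3 to 52.4 and 46.7 to 52.2 CPM in tamoxifen libraries. Its change was 0.16 at ct 18 and 1.22 at ct 42. Atrial markers were called for 4 of 6 (Myl7, Myl4, Dkk3 and Tbx5), beside the same 4.88% of all genes. The part of atrial tissue in the other day differences was not tested.

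Differences from the other times also did not repeat across days. Within the second 24 h alone, mid subjective night differed from the other 5 times for 550 genes, and within the first for 0 (3192 at an unadjusted p under 0.05). Of the 550 genes 55 (10%) had the same sign of difference in the first 24 h, where 28.84% of all genes did. Without Veh_M_ct42_21 the 550 fell to 5, Gm7658, Hspb11, Ncoa1, Rai1 and Slc45a4, named after their values were seen. Without the 13 libraries high in Myl7, of which 4 are the ct 18 vehicle libraries and the rest belong to other times, 495 genes differed. In the F libraries of the second 24 h alone 3537 genes differed, and 0 (665 unadjusted) in those of the first.

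Female and male hearts were not shown to differ in the effect at mid subjective night. The F-minus-M difference of effects was called for 0 of 15629 genes (0%), with 321 at an unadjusted p under 0.05, a smallest adjusted p of 1 and 0 calls by DESeq2. The median SE of this difference was 0.20 for genes of at least 5 CPM, so small differences could not be seen at this depth of replication. With 8 libraries each, F alone gave 359 calls (2.3%) and M alone 130 (0.832%), and 83 genes were called the same way in both. Of the 359 F calls 358 had the same sign in M, and all 130 M calls had the same sign in F, from libraries that are not shared, where 75.98% of all genes did. Clock members called were 8 in F (Npas2, Rorb, Cry1, Nr1d2, Ciart, Nfil3, Nampt and Coq10b) and 7 in M (Clock, Npas2, Per3, Cry1, Nr1d2, Ciart and Nfil3).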

How the data were processed

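RNA of mouse ventricle was poly-A selected and sequenced on a NovaSeq, per the labels' protocols. The authors deposited raw read counts per gene for 96 libraries. Per the submitters' processing notes HISAT2, Picard and HTSeq were used on GRCm38/mm10, and the sources used here give neither versions nor the strand setting. Genes passing filterByExpr by group (minimum count 10, all 96 libraries) were tested, 15629 of 55376, of which 15523 matched GENCODE M21 symbols. Tests used edgeR 4.0.16 in R 4.3.3 (TMM, glmQLFit, glmQLFTest, Benjamini-Hochberg, called under 0.05) and were checked on simulated data. The 16-library model had sex and treatment (13 residual degrees of freedom). The test against other times had 24 means of treatment, sex and circadian time (72 residual degrees of freedom). The same 16-library model was fitted at each other time. No pair of replicates matched within sampling noise (chi-square per gene 4.70 to 50.4 over genes of at least 20 counts). Named genes are the clock lists, the 10 highest and lowest changes with at least 5 CPM and 1 direction in both sexes and days, and up to 2 called members per direction of 39 lists. Entries in date form (0.1345% of counts) are not named. The comparison, lists and rules were chosen with earlier results of these data known. Alternatives were scaling, filters, DESeq2 1.42.0, other designs, length and GC correction, and leaving libraries out (high in Myl7 means over 20 CPM). Some were chosen after seeing the data: the tests among all times, against single times and between days, F libraries by day, and removals that name Veh_M_ct18_2 or Veh_M_ct42_21 together with others. A few members of the lists are counted and not reported here by name.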

Additional observations from a re-analysis of the deposited data

Results flagged for a closer look

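Over 188 groups of 4 libraries (47 clock and leading genes by 4 groups), 7 held a library far from the other 3, where chance flags about 1 in 20. The library Veh_M_ct18_2 held 50.15 CPM of Nr1d1 against 10.74 to 15.98 CPM in the other vehicle M libraries. Tam_M_ct42_537 held 1.838 CPM of Rorb against 3.376 to 3.682 CPM, and 4.594 CPM of Gm19522 against 2.124 to 2.481 CPM, in the other tamoxifen M libraries. Veh_F_ct42_433 held 1.592 CPM of Rorb against 1.001 to 1.066 CPM. Tam_F_ct42_542 held 52.96 CPM of Hlf against 42.66 to 43.76 CPM. Tam_F_ct18_575 held 87.4 CPM of Usp2 against 100.5 to 102.3 CPM. Tam_F_ct18_504 held 4.036 CPM of Cntn5 against 2.43 to 2.588 CPM.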

How the results depend on the processing

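Counts within 1.5 times of the main count are not listed here. Genes called at mid subjective night were 3472 with the spread taken from all 96 libraries, 359 in F and 130 in M libraries alone and 5872 without the libraries high in Myl7, and 1325 to 2198 without each library. At ct 18 alone the 8.32% of tested genes called became 3.72% with the spread from all libraries and 3.92 to 7.25% without each library, and at ct 42 alone the 22.6% became 35.04% and 6.27 to 35.4%. Genes that differed from the other times, 0 in the main test, were 2 with DESeq2, 1 with 48 means, 550 in the second 24 h (5 without Veh_M_ct42_21), 26 in F libraries (3537 in those of the second 24 h), 495 without the 13 libraries high in Myl7, 2 (Nr1d1 and Stc2) without Veh_M_ct18_2 and 6 tamoxifen libraries of other times that an earlier analysis had set apart, and 0 to 1 without each library of mid subjective night. Against single times they were 0 (ct 22), 1 (ct 2), 2 (ct 6: Cry1 and Irf2bp2), 2 (ct 10: Arntl and Dmpk) and 7 (ct 14), and 103 in the test among all times. The day difference, 762, was 1264 with the spread from all libraries and 1558 with DESeq2. The F-minus-M difference was 0 in all 21 alternatives. Of the named genes' changes, 2658 recomputed values kept their direction and side of the threshold, 324 lost and 16 gained a call, and 1 turned: Nr1d1, to 0.506 without the libraries high in Myl7. In the F libraries of the second 24 h the differences from other times of Hlf (0.644) and Casq2 (0.407) turned and were called. The cause was not tested. No paired analysis was possible because replicate numbers are not shared between groups.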
